A study of Mus musculus with 12 samples.

Results

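The genes described here are 10 markers of border-associated macrophages, namely Mrc1, Cd163, Lyve1, Cbr2, F13a1, Ms4a7, Pf4, Stab1, Ccr2 and Folr2. They were taken as a given list, chosen with earlier results of these data known, and matched by symbol to Ensembl mouse identifiers. All 10 were found in both count tables, among 32783 identifiers present in either table. In GRCm38 they are protein-coding genes at chr2:14229392-14332057 (Mrc1), chr6:124304656-124330527 (Cd163), chr7:110850607-110863239 (Lyve1), chr11:120729489-120732114 (Cbr2), chr13:36867178-37050244 (F13a1), chr19:11321039-11336146 (Ms4a7), chr5:90772435-90773383 (Pf4), chr14:31139013-31168641 (Stab1), chr9:124101950-124113557 (Ccr2) and chr7:101839988-101857194 (Folr2), and counts cover their exons. Border-associated macrophages live at the edges of the brain, in the meninges, around vessels and in the choroid plexus, whereas microglia live in the parenchyma. Both are resident macrophages that carry CD11b, so a CD11b sort can hold either. Of the 10 markers, 5 are scavenger or endocytic receptors (Mrc1, Cd163, Lyve1, Stab1 and Folr2), which take up debris and ligands, and the others are a chemokine receptor, a four-transmembrane protein and secreted or enzymatic proteins. In bulk RNA, more cells of a type and more RNA per cell cannot be told apart.

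The libraries came from the hippocampi of male C57Bl6/J mice that received an AAV2/9 vector in CA1 on both sides at 2 months of age and were collected at 4 months. The vector drove either eGFP (AAV-GFP, the control) or the murine adenosine A2A receptor (AAV-A2A) from GfaABC1D, a promoter used to target astrocytes. Cells were freed of myelin and sorted on magnetic beads, first for the astrocyte antigen ACSA-2 and then, from the cells that ran through, for CD11b. Each of the 4 groups held 3 libraries, named below by vector and number, for ACSA-2 GFP-303, GFP-306, GFP-307, A2A-309, A2A-310 and A2A-313, and for CD11b GFP-2328, GFP-2329, GFP-2331, A2A-2343, A2A-2344 and A2A-2347. The labels do not say whether ACSA-2 and CD11b libraries came from the same mice, and the fraction, the order of the sort and the table cannot be told apart.

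Totals ran from 33937067 to 49217553 counts per ACSA-2 library and from 36098295 to 53206974 per CD11b library. Between the fractions, all 8 astrocyte markers were lower and all 12 microglia markers were higher in CD11b. The CD11b libraries nevertheless fell into separate kinds. GFP-2328, GFP-2329 and A2A-2347 held 31130 to 76429 CPM (counts per one millionth of the library's TMM-scaled total) summed over 12 choroid plexus markers, and GFP-2331, A2A-2343 and A2A-2344 held 14.4 to 138 CPM. The choroid plexus-rich libraries are 2 of 3 AAV-GFP and 1 of 3 AAV-A2A libraries, and the same 3 libraries had the lowest microglia sums, 9548 to 18565 CPM against 44598 to 69715 CPM. In each of these 3 libraries the choroid plexus sum was above the microglia sum. For the members, the comparisons that rest on them are therefore also given without them, though not for every member and not for the other gene lists.

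**Figure D1:**
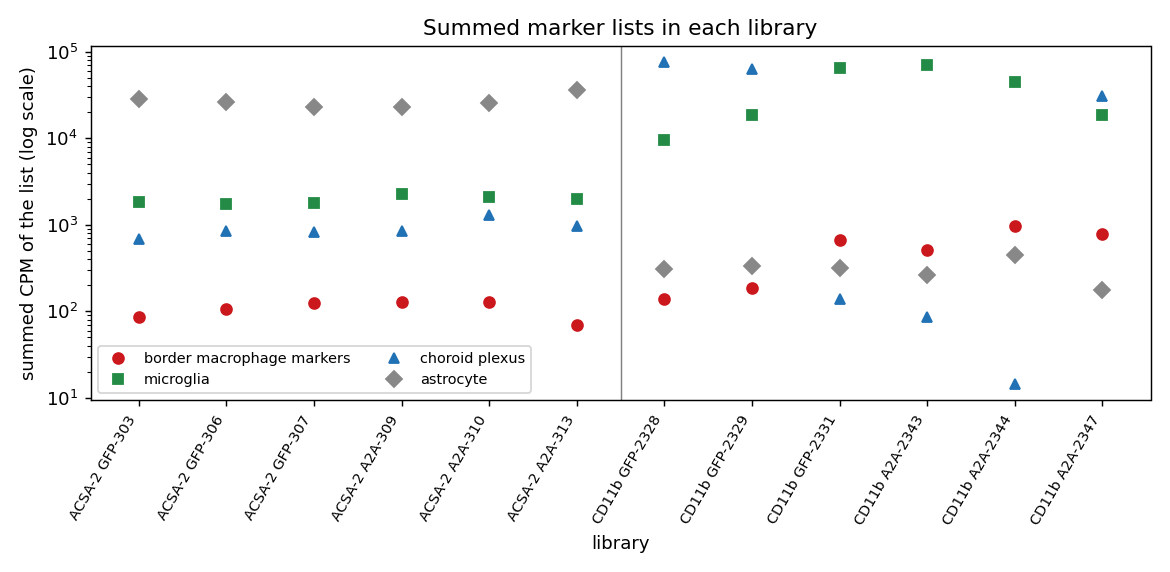
Summed CPM (log axis) of the border macrophage, microglia, choroid plexus and astrocyte marker lists in each of the 12 libraries, ACSA-2 left of the line and CD11b right. The border macrophage sum lies between 70.1 and 130 CPM in ACSA-2 and between 138 and 975 CPM in CD11b. Without Stab1 these sums overlap, at 64.5 to 118 CPM and 60.2 to 297 CPM. The choroid plexus sum separates 3 CD11b libraries from the other 3.

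PU.1 (encoded by Spi1) is the transcription factor on which macrophages depend, and its binding sites share the core GAGGAA. The promoter windows are shown because the members are macrophage genes that are read here together. Of the 9 members with a RefSeq promoter (GRCm38.p6), 5 held GAGGAA on either strand in the 250 bases before the start, namely Mrc1, Cbr2, F13a1, Pf4 and Stab1. The same letters occur in 25.9% of 27025 genes. The longer form GAGGAAGT, which overlaps it, occurred in Pf4 alone among the members and in 2.79% of genes. Cd163, Ms4a7, Ccr2 and Folr2 lacked both in this window, and Lyve1 has no entry. A match is a description of letters and says nothing about binding. The 60-base stretches that hold the core follow, 5′ to 3′ on the strand of the gene, with the core or its reverse complement TTCCTC in capitals, for Mrc1 at chr2:14229352-14229411 (plus), Pf4 at chr5:90772375-90772434 (plus), Cbr2 at chr11:120732068-120732127 (minus), F13a1 at chr13:37050278-37050337 (minus) and Stab1 at chr14:31168642-31168701 (minus). The RefSeq start of Cbr2 lies inside the gene as placed by the annotation above, so its core falls within that gene.
Mrc1: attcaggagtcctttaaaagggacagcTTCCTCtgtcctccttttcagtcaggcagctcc
Pf4: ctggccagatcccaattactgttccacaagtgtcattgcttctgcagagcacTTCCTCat
Cbr2: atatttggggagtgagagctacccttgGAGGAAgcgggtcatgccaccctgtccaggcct
F13a1: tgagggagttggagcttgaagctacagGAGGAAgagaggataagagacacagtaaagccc
Stab1: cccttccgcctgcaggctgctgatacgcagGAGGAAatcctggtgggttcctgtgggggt

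The first comparison asked in which sorted fraction the markers were found. Against ACSA-2, the CD11b fraction held more of 5 of the 10 members, Stab1, Ccr2, Cd163, F13a1 and Mrc1, and the test did not separate the fractions for Ms4a7, Lyve1, Pf4, Folr2 and Cbr2. A gene was called at an adjusted p under 0.05 (edgeR's quasi-likelihood test with Benjamini-Hochberg adjustment over 18995 genes) and an absolute log2 fold change over 0.32. Of all tested genes, 30.5% were called higher in CD11b and 24.7% lower. The median log2 fold change was 1.02 over the members and 0.15 over all tested genes. Over the 12 microglia markers it was 6.75, and all 12 were called higher. The summed members other than Stab1 overlapped between fractions, at 64.5 to 118 CPM in ACSA-2 and 60.2 to 297 CPM in CD11b, where GFP-2328 (66.6 CPM) and GFP-2329 (60.2 CPM) were the lowest.

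The 5 called members have the 5 longest transcripts of the 10, and over all tested genes the median log2 fold change was -0.96 for transcripts up to 1.5 kb and 0.73 for those over 4.5 kb. With each library's trend on transcript length removed, Mrc1 was no longer called (0.88, adjusted p = 0.0600 by edgeR). Cd163 (1.92, adjusted p = 0.0124), F13a1 (1.31, adjusted p = 0.0323), Stab1 (3.77, adjusted p = 0.000102) and Ccr2 (4.86, adjusted p = 0.0033) were still called. The short members moved up, with Cbr2 at 0.67 and Folr2 at 0.63 in the same setting. Pf4, the shortest, reached at most 1.09 across the alternatives run. Cbr2, Folr2 and Pf4 were not called in any alternative. The split of the members into called and not called thus partly followed transcript length. Without the 3 choroid plexus-rich libraries, GFP-2331 is alone in the CD11b AAV-GFP group. The log2 fold changes were then 1.82 for Mrc1, 2.94 for Cd163, 2.32 for F13a1, 4.73 for Stab1 and 5.73 for Ccr2.

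**Figure D2:**
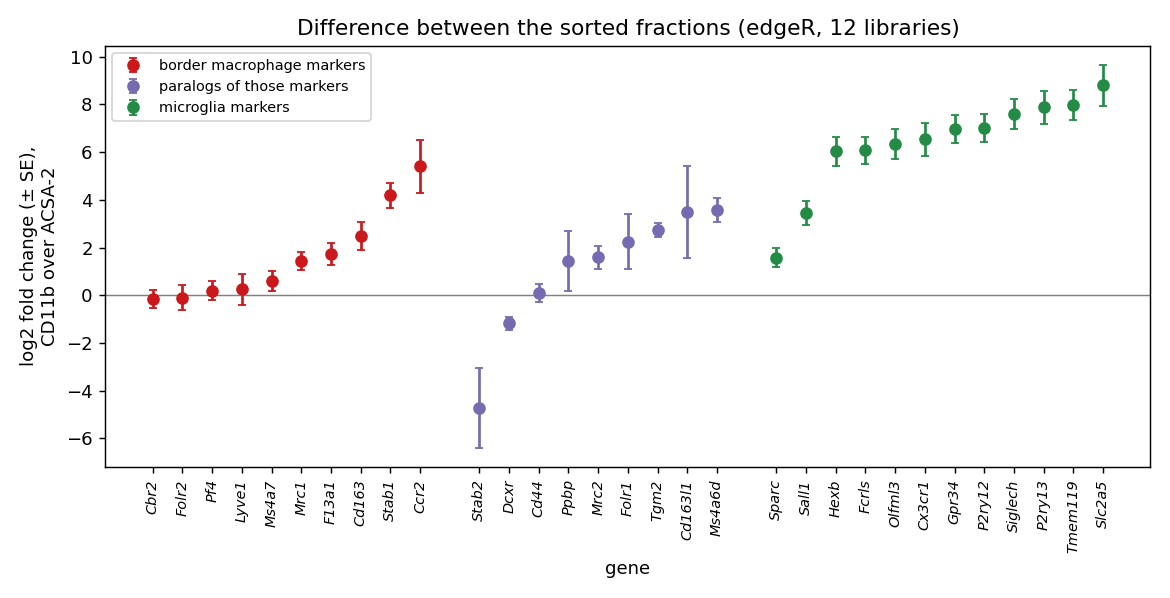
Log2 fold change (± SE) of CD11b over ACSA-2 for the 10 border macrophage markers, 9 paralogs of them and the microglia markers, from the edgeR fit of 12 libraries. The border macrophage markers lie between -0.16 and 5.40 and the microglia markers between 1.58 and 8.80.

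Among the scavenger receptors, Stab1 (stabilin-1, a receptor for modified lipoproteins and other ligands) stood apart. It measured 15.7, 31.0, 27.8, 19.7, 11.7 and 5.62 CPM in the ACSA-2 libraries, and 71.5, 128, 402, 241, 791 and 493 CPM in the CD11b libraries in the order given above. The lowest CD11b library was above the highest ACSA-2 library. The log2 fold change was 4.19 ± 0.52 (SE; adjusted p = 5.82e-05 by edgeR), and Stab1 was the only member whose fractions did not overlap, against 32.1% of all tested genes in either direction. It was also the only member still called when the AAV-GFP libraries were compared alone.

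Mrc1 (the mannose receptor CD206) measured 11.3, 14.4, 15.4, 20.4, 12.6 and 8.33 CPM in ACSA-2, and 9.94, 11.7, 40.01, 55.6, 56.8 and 89.6 CPM in CD11b. GFP-2328 and GFP-2329 lay within the ACSA-2 range, and the other 4 CD11b libraries lay above it. This came to a log2 fold change of 1.44 ± 0.37 (adjusted p = 0.00635 by edgeR). It was 0.58 (adjusted p = 0.480) between AAV-GFP libraries alone.

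Cd163, the receptor that takes up haemoglobin bound to haptoglobin, measured 0.434, 1.80, 3.74, 2.55, 2.72 and 2.37 CPM in ACSA-2, and 2.91, 2.65, 14.0, 12.5, 28.4 and 31.7 CPM in CD11b. The same pair of AAV-GFP libraries overlapped with ACSA-2. Its log2 fold change was 2.48 ± 0.58 (adjusted p = 0.0036 by edgeR), and 1.71 (adjusted p = 0.243) in AAV-GFP libraries alone.

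Lyve1, a hyaluronan receptor also found on lymphatic endothelium, did not follow. It measured 0.434, 9.04, 10.7, 6.27, 8.67 and 4.62 CPM in ACSA-2, and 3.43, 3.80, 11.5, 19.9, 4.497 and 5.53 CPM in CD11b. The fractions overlapped, and the log2 fold change of 0.25 ± 0.66 (adjusted p = 0.762 by edgeR) turned negative in the AAV-GFP libraries alone (-0.11) and when GFP-303, GFP-2331 or A2A-2343 was left out. The summed lymphatic endothelial markers lay between 42.5 and 87.4 CPM in ACSA-2 and between 9.84 and 37.8 CPM in CD11b, and their part in the Lyve1 level was not tested.

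Folr2, the folate receptor of macrophages, was low throughout, at 0.791 to 2.41 CPM in ACSA-2 (median 1.89) and 0.71 to 2.39 CPM in CD11b (median 1.47). Its log2 fold change was -0.10 ± 0.52 (adjusted p = 0.886 by edgeR). Of its exonic bases, 63.1% overlap the antisense gene Gm10602, so its reads are uncertain unless the counting used strand, which is not given in the sources used here. Its paralog Folr1, a choroid plexus gene, measured 1225, 900 and 527 CPM in the choroid plexus-rich CD11b libraries GFP-2328, GFP-2329 and A2A-2347, and 3.61 to 6.94 CPM in the other 3. Folr2 did not separate these libraries.

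Of the remaining surface proteins, Ccr2, the chemokine receptor by which monocytes leave the blood, is shared by border macrophages and monocytes. It had 84, 1, 0, 6, 8 and 4 counts in ACSA-2, and 305, 83, 565, 1074, 313 and 2323 counts in CD11b. GFP-303 held 84 of the 103 ACSA-2 counts, and its level (2.14 CPM) was above that of GFP-2329 (1.90 CPM), while the other ACSA-2 libraries reached at most 0.19 CPM. The log2 fold change was 5.40 ± 1.104 (adjusted p = 0.00161 by edgeR), and 8.11 without GFP-303. The summed monocyte and neutrophil markers were 8.9 to 40.6 CPM in ACSA-2 and 185 to 699 CPM in CD11b, and their part in the Ccr2 level was not tested.

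Ms4a7, a four-transmembrane protein of macrophages, measured 6.33 to 23.2 CPM in ACSA-2 (median 10.8) and 8.05 to 35.7 CPM in CD11b (median 15.0). Its log2 fold change was 0.60 ± 0.41 (adjusted p = 0.231 by edgeR). It was 1.06 without the 3 choroid plexus-rich libraries, where GFP-2331 is alone in the CD11b AAV-GFP group. Its paralog Ms4a6d was higher in CD11b by 3.58 ± 0.51 log2 (adjusted p = 0.000137 by edgeR).

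F13a1, the catalytic A subunit of coagulation factor XIII, measured 9.95, 12.99, 18.9, 14.8, 13.6 and 8.83 CPM in ACSA-2, and 10.95, 8.81, 62.5, 76.7, 55.3 and 78.6 CPM in CD11b. As for Mrc1 and Cd163, GFP-2328 and GFP-2329 were the low CD11b libraries. F13a1 was higher in CD11b by 1.74 ± 0.45 log2 (adjusted p = 0.00685 by edgeR), and by 0.97 (adjusted p = 0.386) in AAV-GFP libraries alone.

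Pf4, the chemokine platelet factor 4, measured 8.92 to 24.2 CPM in ACSA-2 (median 15.7) and 8.61 to 41.3 CPM in CD11b (median 12.5). Cbr2, a carbonyl reductase, measured 16.6 to 31.5 CPM in ACSA-2 (median 21.6) and 8.74 to 39.3 CPM in CD11b (median 15.1). Neither separated the fractions, with log2 fold changes of 0.20 ± 0.41 for Pf4 and -0.16 ± 0.38 for Cbr2 (adjusted p = 0.703 and 0.734 by edgeR). Of the 50-base windows of Cbr2 transcripts, 12.1% also occur in transcripts of other genes.

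**Figure D3:**
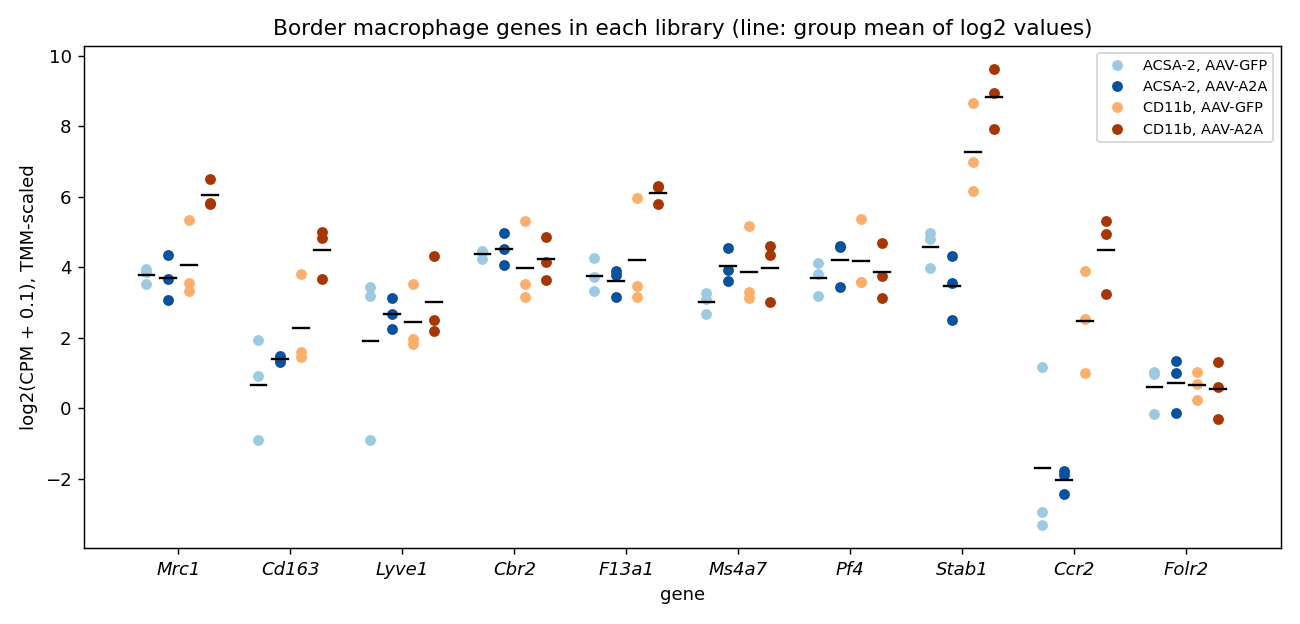
Level of each of the 10 genes, as log2(CPM + 0.1), in every library by fraction and vector, with the line at the group mean of the log2 values. Stab1 and Ccr2 separate the fractions most, and Cbr2, Pf4 and Folr2 lie at the same height in both.

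Per kilobase of exonic length, Pf4 was the highest member in ACSA-2 (22.8 ± 8.94 CPM per kb, SD, n = 6), followed by Cbr2 (16.7 ± 3.87) and then by Ms4a7 (2.80 ± 1.36). Pf4 was above Cbr2 in 5 of 6 libraries and Cbr2 above Ms4a7 in 6 of 6. Lyve1, Mrc1, F13a1 and Stab1 followed within 1.81 to 2.27 CPM per kb, each above the next in 3 or 4 of 6 libraries, so their order was within the spread. In CD11b, Stab1 had the highest mean (34.4 ± 26.0), but it was above Pf4 (26.0 ± 17.4) in only 2 of 6 libraries. Folr2 had the lowest mean there (0.978 ± 0.389).

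The members were also set against the microglia markers of the same library. Per 1000 CPM of summed microglia markers, the median of Cbr2 was 11.2 CPM in ACSA-2 and 0.536 CPM in CD11b. Cbr2, F13a1, Ms4a7, Pf4 and Folr2 had a higher ratio in every ACSA-2 library than in any CD11b library. The same held for 62.8% of all tested genes, so 5 of 10 members is not a result about them. Stab1 had medians of 8.52 and 7.19 CPM, and Ccr2 had a lower median in ACSA-2 (0.058 CPM) than in CD11b (0.332 CPM).

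Other genes reported for border macrophages were also divided. Of 18 such genes, 8 were called higher in CD11b (Maf, Slc40a1, Tgfbi, Dab2, Ccl24, Mgl2, Cd36 and Gas6), 2 were called lower (Ednrb and Colec12) and 8 were not called. Of all tested genes, 30.5% were called higher and 24.7% lower. Gas6 measured 1378, 1074 and 1272 CPM in the choroid plexus-rich GFP-2328, GFP-2329 and A2A-2347. It measured 481 to 616 CPM in the other CD11b libraries and 204 to 461 CPM in ACSA-2. Ednrb measured 228 to 460 CPM in ACSA-2 and 8.69 to 39.7 CPM in CD11b, and which cells gave its reads was not tested. Slc40a1, the iron exporter ferroportin, was higher by 2.95 ± 0.39 log2 (adjusted p = 8.56e-05 by edgeR). The median log2 fold change over the 18 genes was 0.62. Of 9 paralogs of the members, 3 were called higher and 2 lower. Mrc2 (beside Mrc1) and Tgm2 (beside F13a1) were higher by 1.61 ± 0.48 and 2.75 ± 0.29 log2, and Stab2 (beside Stab1) and Dcxr (beside Cbr2) were lower, at -4.72 ± 1.66 and -1.17 ± 0.27. Mrc2 measured 5.87, 5.35, 21.6, 17.7, 136 and 72.1 CPM in CD11b, so GFP-2328 and GFP-2329 lay within its ACSA-2 range of 4.88 to 16.3 CPM. Stab2 was near the floor, with 65, 52, 60, 0, 0 and 20 counts in ACSA-2. In CD11b it had 19 counts in A2A-2347 and none elsewhere. Cd44 (beside Lyve1), Cd163l1 (beside Cd163) and Ppbp (beside Pf4) were not called, at 0.10 ± 0.38, 3.49 ± 1.95 (adjusted p = 0.154 by edgeR) and 1.44 ± 1.27 (adjusted p = 0.359).

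The second comparison asked whether A2A receptor expression in astrocytes went with a change of the markers in the CD11b fraction. None of the 10 members was called, as was none of the 16949 tested genes (0%). DESeq2 called 502 genes and also none of the members, and limma-voom called no gene. At an unadjusted p under 0.05, 2 members (Mrc1 and Cd163) were higher, against 9.68% of all tested genes. The median log2 fold change over the members was 1.00, against -0.05 over all tested genes, and 6 were positive and 4 negative.

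Mrc1 averaged 20.5 ± 16.9 CPM (SD, n = 3) with AAV-GFP and 67.3 ± 19.3 CPM with AAV-A2A. All 3 AAV-A2A libraries were above all 3 AAV-GFP libraries, which 11.9% of all tested genes also showed. The log2 fold change was 1.74 ± 0.59 (unadjusted p = 0.0226, adjusted p = 0.282 by edgeR). Cd163 averaged 6.52 ± 6.47 and 24.2 ± 10.2 CPM, with a log2 fold change of 1.93 ± 0.77 (adjusted p = 0.302 by edgeR), and A2A-2343 lay below GFP-2331.

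F13a1 averaged 27.4 ± 30.4 and 70.2 ± 12.95 CPM, Stab1 200 ± 177 and 508 ± 275 CPM, and Ccr2 7.46 ± 6.60 and 26.4 ± 15.5 CPM. Their log2 fold changes of 1.38, 1.35 and 1.86 had adjusted p values of 0.401, 0.402 and 0.338 by edgeR, and their groups overlapped. Lyve1 gave 0.65 ± 0.75. Cbr2, Ms4a7, Folr2 and Pf4 gave -0.01, -0.03, -0.03 and -0.45.

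Within AAV-GFP, GFP-2331 was above GFP-2328 and GFP-2329 for 9 of the members and between them for Folr2. The summed choroid plexus markers were 138 CPM in GFP-2331, against 76429 CPM in GFP-2328 and 63446 CPM in GFP-2329. The summed microglia markers were 65531 CPM in GFP-2331, against 9548 and 18533 CPM. The source of the AAV-GFP spread was not tested. Without GFP-2331 only choroid plexus-rich AAV-GFP libraries remained. The log2 fold changes were then larger for Mrc1 (2.59) and F13a1 (2.77), with adjusted p = 0.132 by edgeR. Without the 3 choroid plexus-rich libraries, which leaves GFP-2331 against A2A-2343 and A2A-2344 and assumes that the lone library varies like the others, they were 0.47 for Mrc1, 0.53 for Cd163, 0.06 for F13a1, 0.34 for Stab1 and 0.41 for Ccr2. Those of Ms4a7 and Pf4 were then -1.18 and -1.29. No marker gene of another cell type was called in this comparison either. For most of those cell types the summed markers overlapped between the vectors in CD11b, and for 3 they did not. The summed erythrocyte markers were 1016 to 5984 CPM with AAV-GFP and 56.7 to 253 CPM with AAV-A2A, the neuron markers 23.2 to 116 CPM and 4.48 to 10.3 CPM, and the endothelial markers 786 to 2241 CPM and 512 to 591 CPM, without overlap in any of the 3. Their part in the members' differences was not tested.

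Transcript length differed between members with large and small differences. The 5 members with the largest log2 fold changes in CD11b had the 5 longest transcripts, from 3.952 kb (F13a1) to 7.999 kb (Stab1), and those of Pf4, Cbr2 and Folr2 were 0.588 to 1.204 kb. Ms4a7 went apart from this, with a log2 fold change of -0.03 at 3.607 kb. Over all tested genes the median log2 fold change was -0.78 for transcripts up to 1.5 kb and 0.45 for those over 4.5 kb. With each library's trend on transcript length removed, the values were 1.22 for Mrc1, 1.44 for Cd163, 1.09 for F13a1, 0.85 for Stab1 and 1.41 for Ccr2, and those of Pf4, Cbr2 and Folr2 became 0.37, 0.65 and 0.58.

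**Figure D4:**
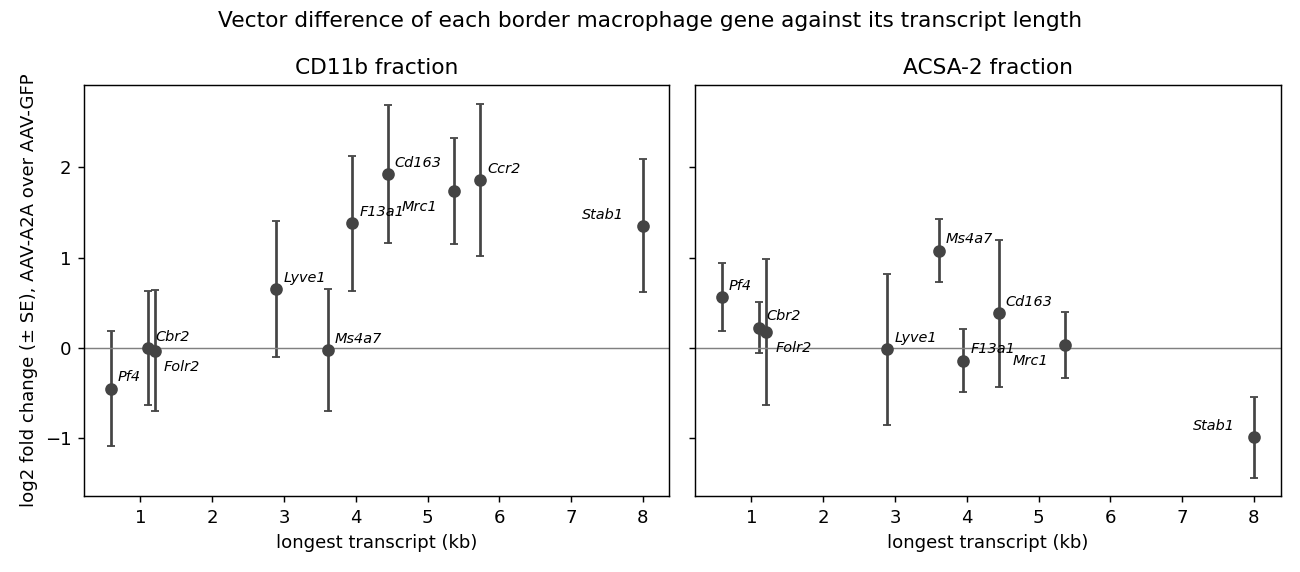
Log2 fold change (± SE) of AAV-A2A over AAV-GFP against the longest transcript of each gene, in CD11b (left, 10 genes) and ACSA-2 (right, 9 genes). In CD11b the genes with transcripts over 3.9 kb lie between 1.35 and 1.93, and in ACSA-2 Stab1, the longest, is the lowest at -0.99.

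The third comparison asked the same in the ACSA-2 fraction. Of the 9 members with enough counts to be tested (Ccr2 was not), none was called, against 3.36% of 16451 tested genes. At an unadjusted p under 0.05 there was 1 member, Ms4a7, against 13% of all tested genes. Its level was 9.49, 8.53 and 6.33 CPM with AAV-GFP and 15.1, 23.2 and 12.2 CPM with AAV-A2A, without overlap, which 7.84% of all tested genes showed in that direction. The log2 fold change was 1.08 ± 0.35 (adjusted p = 0.178 by edgeR), and DESeq2 called it (adjusted p = 0.0395). The paralog Ms4a6d gave 1.00 ± 0.46 (adjusted p = 0.401 by edgeR).

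Stab1 averaged 24.9 ± 8.09 CPM with AAV-GFP and 12.3 ± 7.06 CPM with AAV-A2A in ACSA-2, a log2 fold change of -0.99 ± 0.45 (adjusted p = 0.392 by edgeR), with A2A-309 above GFP-303. The other members gave -0.14 (F13a1) to 0.56 (Pf4). The median over the 9 was 0.17, against 0.02 over all tested genes. The libraries with the lowest Lyve1 and Cd163 (GFP-303, 0.434 CPM for both) and the lowest Mrc1, F13a1 and Stab1 (A2A-313) differed.

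Whether the vector differed in its effect between the fractions was tested by the interaction over all 12 libraries. None of the 10 members was called, against 0.39% of 18995 tested genes. The values were 2.36 ± 0.93 for Stab1 (adjusted p = 0.200 by edgeR), 1.71 ± 0.73 for Mrc1 (adjusted p = 0.229) and -1.10 ± 0.82 for Ms4a7 (adjusted p = 0.502). Ccr2 gave 4.11 ± 1.95 (adjusted p = 0.276), Cd163 1.54 ± 1.104 (adjusted p = 0.483), F13a1 1.52 ± 0.88 (adjusted p = 0.378) and Pf4 -0.99 ± 0.82 (adjusted p = 0.553). Lyve1, Cbr2 and Folr2 gave 0.72, -0.20 and -0.15 (adjusted p = 0.821, 0.929 and 0.975). Without GFP-2331, Mrc1 (2.64, adjusted p = 0.0236), F13a1 (3.002, adjusted p = 0.0136) and Stab1 (3.37, adjusted p = 0.0374) were called, against 6.24% of the 20073 genes tested there. The CD11b AAV-GFP group then held only GFP-2328 and GFP-2329, both choroid plexus-rich. Vector and choroid plexus content cannot be fully told apart in that fit. Without the 3 choroid plexus-rich libraries, with GFP-2331 then alone in its group, no member was called, and the values were 1.38 for Stab1, 0.49 for Mrc1 and 0.25 for F13a1 (adjusted p = 0.626, 0.867 and 0.999 by edgeR). The 18 other border macrophage genes held no call in either fraction's vector comparison.

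Over the 6 CD11b libraries, the genes whose centred log2 level was most like the median profile of the members were Cd300lf, Cotl1, Pygl, Cep85 and Syt3, with root mean square differences of 0.31, 0.31, 0.31, 0.34 and 0.34 among 11109 candidates. The members themselves lay 0.34 (Cbr2) to 0.96 (Stab1) from that profile. The profile was lowest in GFP-2328 and GFP-2329 and highest in GFP-2331, A2A-2343 and A2A-2347. A2A-2344 was the lowest library for Ms4a7, Pf4 and Folr2 and the highest for Stab1, so the members did not move together there.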

How the data were processed

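RNA of sorted ACSA-2 and CD11b cells was amplified and sequenced in 12 libraries. The deposited values are raw read counts per Ensembl gene, which the authors made with cutadapt 1.10, STAR 2.5.3 on mm10 and HTSeq 0.6.1p1, keeping reads unique to one gene. The strand setting is not given in the sources used here. Reads carry no molecular identifiers, and p-values measure only the spread between these libraries. No pair of replicates agreed within sampling noise.

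Libraries were grouped by their labels. The tables were joined by Ensembl identifier and named from GENCODE M21 (GRCm38). Differences were tested with edgeR 4.0.16 in R 4.3.3 (quasi-likelihood, TMM, filterByExpr, Benjamini-Hochberg over all tested genes). CPM use TMM-scaled totals of all 12 libraries. Alternatives were DESeq2 1.42.0, limma-voom 3.58.1, other scaling, filters and samples, a choroid plexus covariate, and each library left out. Leaving out choroid plexus-rich libraries and removing the transcript length trend were chosen after seeing the data. The fits were tested on simulated data. Members and lists were chosen with earlier results of these data known. All members are named in every comparison. Of the other border macrophage genes those called are named, of the paralogs those beside their member (1 is not reported here), and the 5 genes nearest the members' profile (pseudocount 1 CPM, mean of at least 5 CPM).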

Additional observations from a re-analysis of the deposited data

Results flagged for a closer look

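In Stab1 all 3 CD11b AAV-A2A libraries were above the mean of their AAV-GFP libraries and all 3 ACSA-2 AAV-A2A libraries were below theirs, with a difference between the vector effects of 2.36 log2 (adjusted p = 0.200 by edgeR). Ccr2 showed the same directions, with a difference of 4.11 log2 (adjusted p = 0.276 by edgeR). Both have long transcripts, and over all tested genes the median of this difference was 0.69 for transcripts over 4.5 kb. The Ccr2 difference rested on the 84 counts of ACSA-2 GFP-303 and was -1.29 without that library.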

How the results depend on the processing

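No paired analysis was run, because the groups compared share no replicate numbers. The fractions may still share mice, which the labels do not say. The comparison of fractions and the interaction treated their libraries as independent. Across all alternatives run no member was called in the CD11b vector comparison. In ACSA-2 DESeq2 called 1 member, Ms4a7. Between fractions the AAV-GFP libraries alone called 1 member (all genes 4561), and Mrc1 was not called with the length trend removed (0.88, adjusted p = 0.0600). With each library left out in turn, 5 members were called between fractions every time, beside 9663 to 10359 of all genes. The interaction called 0 to 3 members with a library left out. All genes called in CD11b were 0, against 502 by DESeq2 and 3 without the choroid plexus-rich libraries. In ACSA-2 they were 553, against 1277 by DESeq2, 146 in the fit of all 12 libraries, 18 with the choroid plexus covariate and 272 to 448 with a library left out. For the interaction they were 74, against 1726 by DESeq2, 0 with the length trend removed, 0 without the choroid plexus-rich libraries and 0 to 1253 with a library left out. DESeq2 gave no adjusted p for F13a1 between fractions and in the interaction, and called the other 4 members between fractions. The cause of these shifts was not tested. None of the members named next passed the test in that comparison. In the CD11b vector comparison, log2 fold changes that turned sign were, by limma-voom, Cbr2 (0.24) and Ms4a7 (0.18), and with no filter on low counts Cbr2 (0.030), Ms4a7 (0.012) and Folr2 (0.0058), and with the choroid plexus covariate Folr2 (0.076), and without the choroid plexus-rich libraries Folr2 (0.015), and with the length trend removed Cbr2 (0.65), Pf4 (0.37) and Folr2 (0.58). With each library left out in turn, those that turned sign ran from -0.27 to 1.38 for Lyve1, -0.36 to 0.90 for Cbr2, -0.34 to 0.88 for Ms4a7, -0.93 to 0.36 for Pf4 and -0.48 to 0.31 for Folr2. In the ACSA-2 vector comparison, log2 fold changes that turned sign were, by limma-voom, Mrc1 (-0.074) and Lyve1 (0.96), and with the choroid plexus covariate Cd163 (-0.19), Cbr2 (-0.14) and Folr2 (-0.61), and with the length trend removed Lyve1 (0.054) and Folr2 (-0.052). With each library left out in turn, those that turned sign ran from -0.35 to 0.28 for Mrc1, -0.11 to 1.20 for Cd163, -0.59 to 0.47 for Lyve1, -0.039 to 0.41 for Cbr2, -0.36 to 0.13 for F13a1 and -0.16 to 0.50 for Folr2. In the comparison of fractions, log2 fold changes that turned sign were, in AAV-GFP libraries alone, Lyve1 (-0.11), and in AAV-A2A libraries alone Pf4 (-0.34), and without the choroid plexus-rich libraries Cbr2 (0.40), and with the length trend removed Cbr2 (0.67) and Folr2 (0.63). With each library left out in turn, those that turned sign ran from -0.24 to 0.53 for Lyve1, -0.64 to 0.020 for Cbr2, -0.24 to 0.35 for Pf4 and -0.34 to 0.077 for Folr2. In the interaction, log2 fold changes that turned sign were, by limma-voom, Lyve1 (-0.33) and Cbr2 (0.14), and with the length trend removed Cbr2 (0.55) and Folr2 (0.66). With each library left out in turn, those that turned sign ran from -0.27 to 1.51 for Lyve1, -0.58 to 0.78 for Cbr2, -1.29 to 5.09 for Ccr2 and -0.64 to 0.19 for Folr2.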
